A study of Mus musculus with 9 samples.

Results

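Cells carrying both the mCherry and the c-fos label, called overlap in the labels, were compared with cells carrying the c-fos label alone. The comparison took 6 of the 9 libraries of the series, chosen by the group named in their labels, 3 from overlap and 3 from c-fos cells. The other 3 came from cells labelled mCherry, and they entered the fit to help estimate the spread. The title of the series concerns neurons of the mouse basolateral amygdala that carry Fgf2 or Notch2 and project to separate targets, in visceral pain and in itch. The design text asks for genes that set apart CRD-labelled, His-labelled and double-labelled cells, and nothing ties either name to mCherry or to c-fos.

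All libraries share the same tissue label, PFA-fixed frozen tissue, and the same method. Cells were collected by laser capture microdissection, in which a laser cuts chosen cells out of a tissue section, and lysed directly. Libraries were made with Smart-3SEQ, which reads the 3′ ends of polyadenylated RNA from very small inputs. The labels give no age, sex, strain, treatment or time. They do not say what drives mCherry, how many cells or animals stand behind a library, or which animal gave which library. Should libraries of a group come from the same animal, the p-values below would be too small. As given, they reflect only how these samples vary, and that variation may be technical.

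The c-fos protein is made by neurons shortly after strong activity and lasts for a limited time, so it is widely used as a stain for recently active cells. A fluorescent marker such as mCherry is often used to tag neurons that were active in another episode or that send their axons to a given target. Cells with both marks are the ones in which the tagged set and the recently active set coincide. Both groups compared here carry the c-fos mark, so the label that separates them is mCherry.

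Total counts per gene table were 109091, 298802 and 304536 in c-fos libraries 1 to 3 and 90091, 225621 and 282974 in overlap libraries 1 to 3. Levels below are CPM, counts scaled to a common library size and corrected by edgeR's TMM factors, which align the bulk of the genes between libraries. A floor of 3 counts corresponded to 33.3 CPM of the total count in overlap 1 and to 9.85 in c-fos 3. The cell type label says spermatocytes and the extraction text testis. Against that, 8 neuron markers (among them Rbfox3, Snap25 and Syt1) summed to 2903, 3237 and 2585 CPM in overlap and 2901, 3686 and 3595 CPM in c-fos libraries, while 8 of 29 listed testis genes, among them Sycp1, Spo11 and Stra8, were at 0 in all 9 libraries. All 29 testis genes together summed to 471, 267 and 797 CPM in overlap and 487, 553 and 484 CPM in c-fos libraries. Library overlap 1 stood apart, with 26.3% of tested genes at 0 counts against 7.73 to 8.23% in the other overlap libraries, and with pancreatic transcripts described below. Main counts are therefore also given without it.

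No gene passed the test between overlap and c-fos cells in edgeR at an adjusted p under 0.05, among 7959 genes tested (0% in each direction). This count depended on the mCherry libraries in the fit. It was 9 of 10174 genes without mCherry 3, and 1 of 6300 with the 6 compared libraries alone. With all libraries, the named genes nearest to the threshold fell on both sides. On the lower side were the homeobox gene Hesx1, nearly absent from overlap libraries, and the abundant transcripts Meg3, Malat1, Hsp90ab1 and Chd3. All 3 overlap libraries were below the c-fos libraries for each of them. On the other side, Jsrp1, Jup and Lbx1 stood higher in every overlap library. Jsrp1 (edgeR adjusted p = 0.457) was nearer to the threshold than Hsp90ab1 (0.569) and Chd3 (0.712). Immediate early genes, the activity-induced family to which Fos belongs, had nearly equal summed levels in both groups with TMM scaling.

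At an unadjusted p under 0.05 stood 406 genes (5.10%), of which 173 genes (2.17%) were higher and 233 (2.93%) lower in overlap cells. DESeq2 called 5 genes higher (0.0653% of 7657 with an adjusted p) and 1 lower (0.0131%), and limma-voom called 0 higher and 3 lower (0.0377%). The higher calls of DESeq2 were Jsrp1, Jup, Lbx1 and 2 predicted genes, and its lower call was Hesx1. The 3 calls of limma-voom were Meg3, Malat1 and Hsp90ab1, so the tools named different genes. The libraries of both groups did not overlap for 1000 genes (12.6%), 315 higher (3.96%) and 685 lower (8.61%) in overlap cells. Without overlap 1, edgeR again called 0 genes of 10040, and 266 (2.65%) higher and 369 (3.68%) lower genes had an unadjusted p under 0.05.

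Hesx1 encodes a homeobox repressor needed for the developing forebrain and pituitary. Its level was 448, 318 and 326 CPM in c-fos libraries 1 to 3 and 0, 4.61 and 0 CPM in overlap libraries 1 to 3. All 218 reads of the c-fos group were spread over its 3 libraries, with 46, 85 and 87 counts, and the overlap group held 1 read. The ratio of c-fos over overlap was 181 (exact binomial 95% interval 32.2 to 7190, counting error only). The fitted log2 fold change was -7.21 ± 1.19 (SE; edgeR adjusted p = 0.158, DESeq2 adjusted p = 0.00211). All 3 mCherry libraries were at 0 as well, so within this series the gene was read almost wholly in c-fos cells without mCherry. Fitting the 6 libraries alone gave an edgeR adjusted p of 0.0102, leaving out mCherry 3 gave 0.00369, and leaving out overlap 1 and mCherry 3 together gave 0.00914. Over the other edgeR settings the adjusted p ran from 0.00115 with no filter on low counts to 0.95 without c-fos 1, and it was 0.646 without overlap 1.

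Meg3 is an imprinted noncoding RNA, expressed from the maternal copy and plentiful in neurons. It stood at 12014, 12637 and 13618 CPM in the c-fos libraries and at 8004, 6479 and 6124 CPM in the overlap libraries. Every overlap library was below every c-fos library (log2 fold change -0.89 ± 0.16, edgeR adjusted p = 0.158, limma-voom adjusted p = 0.000288). Malat1, a long noncoding RNA kept in nuclear speckles, had 5189, 5941 and 6826 CPM in c-fos and 3453, 3519 and 2949.6 CPM in overlap libraries. Here too the groups did not overlap (-0.86 ± 0.17, edgeR adjusted p = 0.405, limma-voom 0.00972). Both RNAs overlap other annotated transcripts, and reads of overlapping genes cannot be told apart since no source used here gives the strand setting of the counting. Of 11 tested long noncoding RNAs on the list, 9 had negative fold changes (median -0.68, against 0.02 over all tested genes). Without overlap 1 the median was -0.38, against 0.01. Most of the list sum came from Meg3 and Malat1, with means of 6869 and 3307 of 12638 CPM in overlap libraries. Snhg11, a snoRNA host transcript, stood at -1.01 ± 0.37 with overlapping groups. In the other direction, Miat, a nuclear RNA of neurons chosen here after its values were seen, was at 0, 18.7 and 18.8 CPM in c-fos and 209, 46.1 and 89.0 in overlap libraries (2.99 ± 1.24).

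Hsp90ab1, the constitutive cytosolic HSP90 chaperone, stood at 3933, 4434 and 4327 CPM in c-fos and at 1975, 2864 and 1687 CPM in overlap libraries. The groups were apart (-0.96 ± 0.21, edgeR adjusted p = 0.569, limma-voom 0.0232). Chd3, a remodelling subunit of the NuRD chromatin complex, was at 9229.7, 6434 and 6409 CPM in c-fos and 3871, 4377 and 2589 CPM in overlap libraries. Its lowest c-fos library was above its highest overlap library (-1.03 ± 0.25, edgeR adjusted p = 0.712). Srrm2, a splicing factor that builds nuclear speckles, had 2239, 2441 and 2968 CPM and 1177, 1374 and 1212 CPM in the same order. Overlap libraries were close to each other and all lower (-1.02 ± 0.27). Ttc3, a ubiquitin ligase, stood at -0.94 ± 0.23, the dynein intermediate chain Dync1i2 at -1.03 ± 0.28, and Ahi1, a protein of the ciliary base, at -1.03 ± 0.28, each with groups that did not overlap. None of these 3 passed in edgeR (adjusted p = 0.739 for each), and Ttc3 overlaps Pigp on the opposite strand.

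A group of lower counts was at 0 in every overlap library. Arhgef18, a guanine nucleotide exchange factor, had 68.2, 112 and 56.3 CPM in c-fos and 31.9, 75.4 and 56.6 CPM in mCherry libraries. Against a floor of 3 counts summed over the overlap group it was at least 14.4-fold lower there than in c-fos cells. Ywhah, the eta member of the 14-3-3 adaptor family, had 97.4, 44.9 and 67.5 CPM in c-fos libraries and was at least 11.1-fold lower in overlap cells. Gpr107, a membrane protein of the Golgi and endosomes, had 68.2, 41.1 and 113 CPM and was at least 13.3-fold lower. Their 40 to 52 counts in the c-fos group were present in all 3 c-fos libraries. In all, 38 tested genes (0.477%) were at 0 in overlap and present in all c-fos libraries, and 9 (0.113%) showed the reverse; with overlap 2 and 3 alone these were 82 and 16. Of the 38, 23 (0.289%) were also present in all mCherry libraries, against 4 (0.0503%) at 0 in c-fos and present in the 6 others. Libraries of the overlap group were shallower on average and had more zeros (14.1 ± 10.6% of tested genes against 6.73 ± 2.59%, SD, n = 3, exact permutation p = 0.3). The part of depth in these zeros was not tested.

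Jsrp1, a protein of the sarcoplasmic reticulum junction in skeletal muscle, was at 0 counts in all c-fos libraries and at 1125, 32.3 and 199 CPM in overlap libraries 1 to 3. Over 140 counts it was at least 56.1-fold higher in overlap cells, and at least 25.3-fold over the 54 counts of overlap 2 and 3 (DESeq2 adjusted p = 0.00116, edgeR adjusted p = 0.457). The level in overlap 1 far exceeded the other overlap libraries, and the log2 fold change was 9.53 ± 1.94 with it and 7.68 ± 2.08 without it. Jup, the junction protein plakoglobin of desmosomes and adherens junctions, stood at 19.5, 37.4 and 37.5 CPM in c-fos and 1295, 83.0 and 352 CPM in overlap libraries. Its groups did not overlap (4.11 ± 1.01, DESeq2 adjusted p = 0.0252, edgeR 0.739), and the fold change was 2.71 ± 1.00 without overlap 1. Lbx1, a homeobox factor of dorsal spinal interneurons and muscle precursors, had 9.74, 0 and 0 CPM in c-fos and 157, 73.8 and 127 CPM in overlap libraries. With 1 count against 58, the ratio was 69.8 (95% interval 12.04 to 2803, counting error only; DESeq2 adjusted p = 0.0426). The 3 overlap libraries all lay above the highest c-fos library.

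Ptms, the acidic nuclear protein parathymosin, had 379.7, 265 and 206 CPM in c-fos, 1164, 530.3 and 932 in overlap and 1240.3, 1026 and 1283 in mCherry libraries. Overlap libraries stood above all c-fos libraries (1.63 ± 0.42, edgeR adjusted p = 0.739) and in part within the mCherry range. Pomgnt2, a glycosyltransferase that modifies dystroglycan, was at 0 counts in c-fos and at 144, 115 and 12.7 CPM in overlap libraries, at least 15.6-fold higher. Ndufaf3, an assembly factor of respiratory complex I, was at 0 counts in c-fos and at 65.4, 50.7 and 59.3 CPM in overlap libraries, at least 12.03-fold higher, and it overlaps Impdh2 on the opposite strand. These overlap values lay close together for Ndufaf3 and spread widely for Pomgnt2. Chkb, a choline kinase of phospholipid synthesis, stood at 0, 15.0 and 0 CPM in c-fos and 301, 189 and 97.5 CPM in overlap libraries (4.93 ± 1.48), with every overlap library higher.

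Every gene named above on the higher side had its largest overlap value in overlap 1, and so did the remaining ones. Mlip, a lamin-interacting protein first known from muscle, had 732, 212 and 93.2 CPM in overlap and 19.5, 48.6 and 3.75 CPM in c-fos libraries. Ypel1, a member of the yippee-like family, had 955, 87.6 and 195 CPM in overlap and 19.5, 48.6 and 41.3 CPM in c-fos libraries. Mllt6, a PHD-finger chromatin protein, had 1635, 87.6 and 119 CPM in overlap and 58.4, 0 and 45.0 CPM in c-fos libraries. All overlap libraries were above all c-fos libraries for these 3 genes, but overlap 1 carried most of the difference. Without it, the log2 fold change went from 3.77 ± 1.05 to 2.61 ± 1.05 for Mlip, from 3.41 ± 0.97 to 1.89 ± 0.98 for Ypel1 and from 4.19 ± 1.26 to 1.62 ± 1.33 for Mllt6. Ppargc1a, a coactivator that drives mitochondrial gene expression, went from 3.10 ± 0.93 to 2.02 ± 0.95. Vmn2r84, a vomeronasal receptor of a large family whose members may share reads, went from 3.12 ± 0.94 to 1.46 ± 0.88. Ypel1 and Ppil2 overlap on opposite strands.

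**Figure D1:**
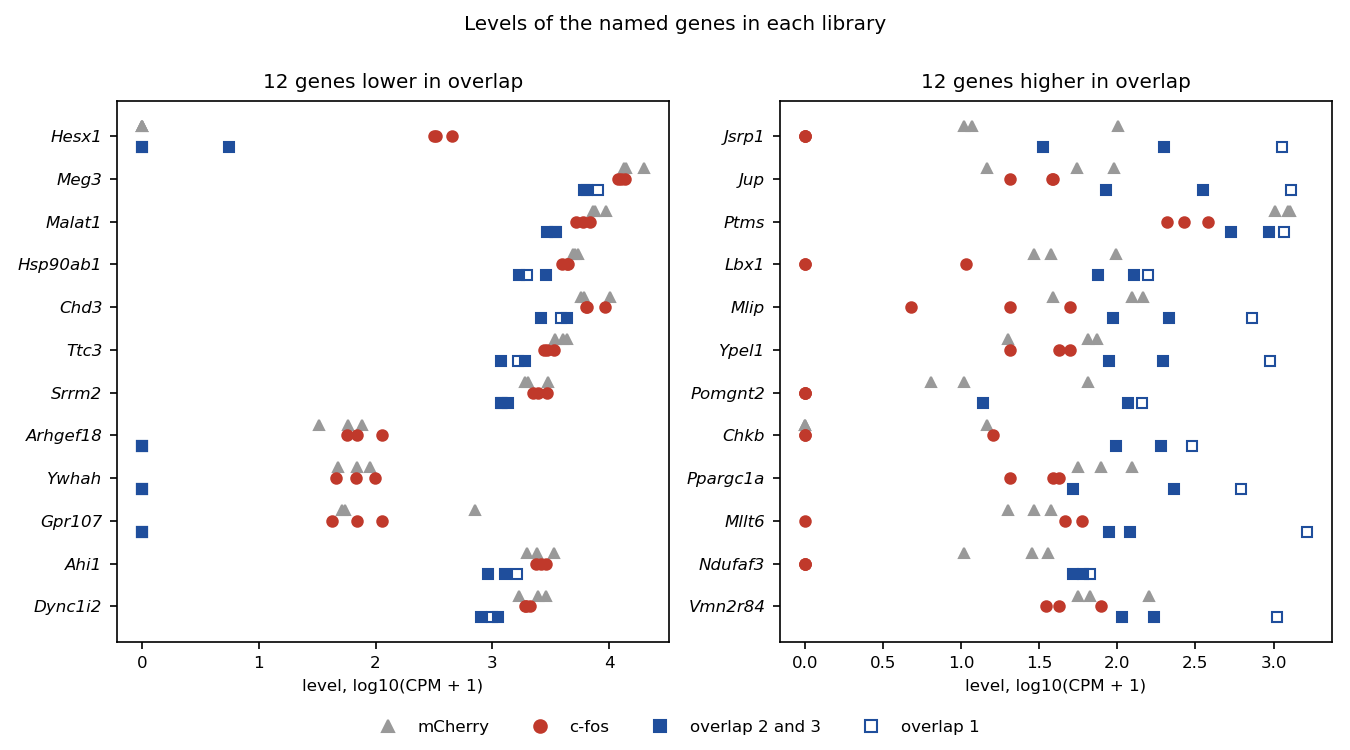
Level of the 12 genes named on each side in every library, as log10 of CPM plus 1; triangles are mCherry, circles c-fos and squares overlap libraries, with overlap 1 as an open square. On the left each overlap library lies below each c-fos library, and on the right above. On the right overlap 1 is the highest overlap library for every gene, by a wide margin for Jsrp1 and Mllt6.

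The abundant genes as a set stood lower in overlap cells on this scale. Of the 200 genes with the highest mean CPM, 145 (72.5%) had negative fold changes, against 49.2% of all tested genes, and their median was -0.41 against 0.02. Among them 58 (29.0%) were lower without overlap between groups and 3 (1.50%) higher, against 8.61% and 3.96% of all tested genes. Without overlap 1, 152 of the 200 had negative fold changes, against 49.5% of all genes tested. They took 16.6 ± 2.44% of counts in overlap and 21.2 ± 0.328% in c-fos libraries (SD, n = 3, exact permutation p = 0.1, the smallest that 3 against 3 allow). With the scale set on these 200 genes instead, the median of all tested genes moved to 0.44, and the non-overlapping genes were 562 higher and 379 lower, in place of 315 and 685. On that scale the fold change of Meg3 was -0.48, Malat1 at -0.44, Hsp90ab1 at -0.56, Chd3 at -0.65 and Hesx1 at -6.94. Each of these 5 genes was still lower in every overlap library on that scale. The same held for Srrm2, Ttc3, Ahi1, Dync1i2, Arhgef18, Ywhah and Gpr107.

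**Figure D2:**
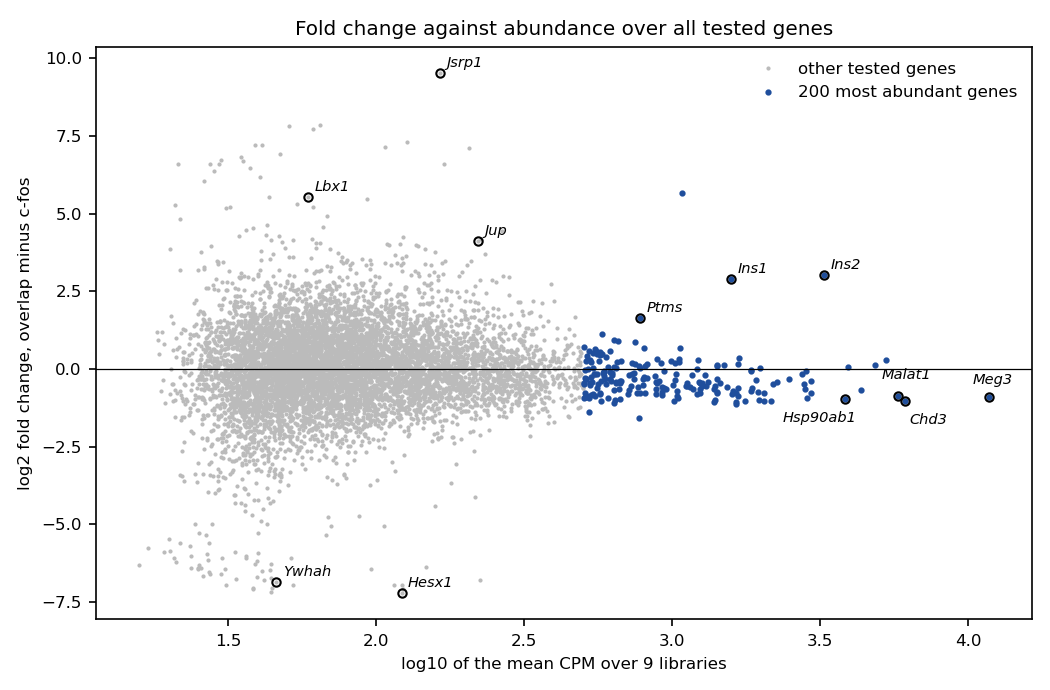
Log2 fold change of overlap against c-fos (vertical axis) by log10 of the mean CPM over the 9 libraries (horizontal axis) for 7959 tested genes; the 200 most abundant are in blue and named genes are circled. Most blue points lie below 0 (145 of 200), with Ins1, Ins2 and Ptms above it.

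Genes behind the labels and the title gave mixed values. Fos, the gene that the c-fos label names, had 399, 318 and 338 CPM in c-fos, 641, 359.7 and 259 in overlap and 187, 64.6 and 56.6 in mCherry libraries. The overlap and c-fos ranges overlapped (0.25 ± 0.63, edgeR adjusted p = 0.988), and both lay above the mCherry range; without overlap 1 the fold change was -0.19 ± 0.69. Fgf2, a growth factor named in the title, was under the filter, with 5, 6 and 22 counts in c-fos libraries (48.7, 22.4 and 82.6 CPM) and 0 counts in every overlap and mCherry library. It was at least 9.14-fold lower in overlap than in c-fos cells, and Nudt6 and Fgf2os overlap it on the opposite strand. Notch2, a Notch receptor and the other gene of the title, had 3 counts over the overlap and 1 over the c-fos libraries, too few for a fold. The mCherry reporter has no row in the table, so its RNA was not analysed here.

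Immediate early genes are switched on within minutes of activity, before new protein is made. Fold changes were positive for 10 of 26 tested members, against 50.8% of all tested genes (median -0.18), and for 9 without overlap 1. Summed over 43 members, the level was 4586, 6299.6 and 7415 CPM in c-fos libraries 1 to 3 and 7193, 5004 and 5967 CPM in overlap libraries 1 to 3. The groups overlapped, at a ratio of 0.993 (exact permutation p = 1). In the mCherry libraries the sum was 2595, 1772 and 3152 CPM, below every library of both groups. Groups that did not overlap were seen for 4 of the 26, 2 higher and 2 lower, against 12.6% of all tested genes, so the number is near the background. Of these 4, 1 was named by rule, and the other 3 were chosen after their values were seen.

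Fosl2, an AP-1 partner of the Fos family, had 48.7, 172 and 101 CPM in c-fos and 0, 13.8 and 0 CPM in overlap libraries. Over 78 and 3 counts, the ratio of c-fos over overlap was 21.6 (95% interval 7.13 to 107). Junb, another AP-1 member, had 224, 250.5 and 266 CPM and 170.02, 148 and 208 CPM in the same order, a smaller step (-0.50 ± 0.76). Higher in overlap were Arc, a regulator of AMPA receptor traffic at synapses, with 392.3, 332 and 292 CPM against 9.74, 172 and 176 in c-fos libraries (1.47 ± 0.84), and Dusp1, a phosphatase that switches off MAP kinases, with 196, 41.5 and 93.2 CPM against 38.9, 37.4 and 22.5 (1.71 ± 1.30). None of these passed in edgeR (unadjusted p = 0.0238 for Fosl2, 0.523 for Junb, 0.0999 for Arc and 0.207 for Dusp1). Egr1, an activity-induced zinc finger factor, stood at 389, 766 and 615 CPM in c-fos and 183, 299.8 and 428 CPM in overlap libraries, with ranges that overlapped (-0.95 ± 0.55).

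Among synaptic receptors, the AMPA receptor subunit Gria2, which sets calcium permeability, had 2716, 2897 and 3246 CPM in c-fos and 1282, 2158 and 1738 CPM in overlap libraries. All overlap libraries were lower (-0.77 ± 0.26, edgeR adjusted p = 0.813). The obligatory NMDA receptor subunit Grin1 went the other way, with 87.6, 355 and 417 CPM in c-fos and 510.1, 563 and 818 CPM in overlap libraries. The groups did not overlap, c-fos 1 being far below the rest (1.12 ± 0.52, adjusted p = 0.944), and Grin1os overlaps it. Grik4, a kainate receptor subunit, stood at -1.78 ± 0.76 with overlapping groups. Summed over the glutamate receptor list, levels were 6630.2, 6849 and 7546 CPM in c-fos and 4747, 5469.5 and 6175 CPM in overlap libraries, a ratio of 0.780 (exact permutation p = 0.1), with 13 of 22 tested members negative. Gria2 made up much of that sum, and on the 200-gene scale the ratio was 1.04 with overlapping groups.

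Among GABA receptor subunits, 7 of 10 tested were negative (median -0.55). Gabrb1, a beta subunit of the GABA-A receptor, was at 127, 153 and 146 CPM in c-fos and 39.2, 23.1 and 8.48 CPM in overlap libraries. Every overlap library was well below every c-fos library (-2.68 ± 0.95, adjusted p = 0.885), and Gabra4 overlaps Gabrb1 on the opposite strand. The sum of the list was 2551, 2868 and 3389 CPM in c-fos and 1909, 2426 and 1674 CPM in overlap libraries, a ratio of 0.682 (exact permutation p = 0.1). On the 200-gene scale the ratio was 0.907 and the groups overlapped. Of 10 tested members, 3 were lower without overlap between groups and 0 higher, where 8.61% of all tested genes were lower.

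The list of sodium and calcium channel genes also held calcium pumps, intracellular calcium release channels and Fgf14. Of its tested members, 21 of 31 were negative, against 49.2% of all tested genes. Of the 31, 7 were lower without overlap between groups, against 8.61% of all tested genes. Without overlap 1, 10 of 31 were positive as before. The summed ratio of the list was 0.747, and 0.998 with overlapping groups on the 200-gene scale. Scn2a, the sodium channel of axon initial segments in excitatory neurons, stood at 594, 479 and 469 CPM in c-fos and 105, 235 and 191 CPM in overlap libraries. It was lower in every overlap library, most of all in overlap 1 (-1.52 ± 0.52, adjusted p = 0.856). The L-type calcium channel Cacna1d had 545, 505 and 540.4 CPM in c-fos and 209, 166 and 271 CPM in overlap libraries. The c-fos libraries lay close together and above all overlap libraries (-1.29 ± 0.51). Cacnb2, an auxiliary calcium channel subunit, had 34 counts in c-fos and 1 in overlap libraries, a ratio of 28.3 (95% interval 4.74 to 1149). Cacna1d and Cacnb2 overlap several other annotated genes. For potassium channels the fold changes were balanced, 13 of 27 positive. Kcnn2, an SK channel opened by calcium, had 9.74, 41.1 and 37.5 CPM in c-fos and 0, 189 and 526 CPM in overlap libraries, so that overlap 1 was lowest and overlap 2 and 3 highest of the 6.

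On the postsynaptic density list 24 of 36 tested members were negative, 7 of them without overlap between groups, where 8.61% of all tested genes were so. Without overlap 1, 10 of 36 were positive in place of 12. Shank1, a scaffold of that density, had 2045, 1473 and 1385 CPM in c-fos and 523, 1185 and 639.9 CPM in overlap libraries (-1.06 ± 0.34). Nrxn2, a presynaptic adhesion molecule that binds neuroligins, had 4917, 5006 and 6169 CPM and 2943, 4413 and 2628 CPM in the same order (-0.69 ± 0.22). Both were lower in all overlap libraries, and neither separated the groups on the 200-gene scale, where the summed ratio of the list was 0.991. Synaptic vesicle genes were balanced, with 21 of 42 tested members positive and sums at a ratio of 1.01. Vamp2, the vesicle SNARE protein, stood lower within that list (224, 351 and 409 CPM in c-fos and 65.4, 212 and 102 CPM in overlap libraries, -1.35 ± 0.59), but its groups overlapped on the 200-gene scale.

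Most tested members of the nuclear lists had negative fold changes. Chromatin genes had 36 of 48 negative, with 10 lower and 1 higher without overlap between groups, against 8.61% lower and 3.96% higher over all tested genes. The summed ratio was 0.671, and 0.887 with overlapping groups on the 200-gene scale; without overlap 1, 11 of 48 were positive. Smarcc2, a core subunit of the BAF remodelling complex, had 146, 168 and 128 CPM in c-fos and 39.2, 55.3 and 33.9 CPM in overlap libraries (-1.76 ± 0.74). Against the list, the histone demethylase Kdm4b stood at 2.18 ± 0.93, with overlapping groups and its highest value in overlap 1. Splicing and RNA-binding genes had 34 of 47 negative, 12 of them lower without overlap between groups and 0 higher, where 8.61% and 3.96% of all tested genes were so. Their summed ratio was 0.680, and 0.900 with overlapping groups on the 200-gene scale; without overlap 1, 11 of 47 were positive. Luc7l2, a U1 snRNP-associated factor, was at 2570.3, 1611 and 1268 CPM in c-fos and 863, 1065 and 572 CPM in overlap libraries (-1.12 ± 0.34), and Hnrnpc, a nuclear pre-mRNA binding protein with 28 counts in c-fos cells, was at 0 in overlap, at least 7.76-fold lower. The groups were apart for both genes, while those of Luc7l2 overlapped on the 200-gene scale.

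Chaperones summed to 5968, 6842 and 6642 CPM in c-fos and 4250.4, 4275 and 3547 CPM in overlap libraries, a ratio of 0.621 (exact permutation p = 0.1). Hsp90ab1 was a large part of this sum, and 11 of 19 tested members were negative. With Hsp90ab1 left out, the other chaperones summed to 2035, 2408 and 2315 CPM in c-fos and 2276, 1411 and 1861 CPM in overlap libraries, and the groups overlapped (ratio 0.821, exact permutation p = 0.2). Hspa9, the mitochondrial HSP70, had 87.6, 97.2 and 109 CPM in c-fos and 39.2, 18.4 and 0 CPM in overlap libraries (-2.52 ± 1.14). On the microtubule list 25 of 36 were negative, at a summed ratio of 0.734, and 0.972 with overlapping groups on the 200-gene scale. Its named members were the axonal kinesin Kif5a (-1.05 ± 0.33), the axonal protein tau, Mapt (-0.79 ± 0.34), both with overlapping groups, and the microtubule binder Map7 (127, 71.0 and 86.3 CPM in c-fos and 26.2, 27.7 and 4.24 in overlap libraries, -2.31 ± 1.04).

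Housekeeping lists were close to balance. Cytosolic ribosomal proteins had 28 of 48 tested members positive and a summed ratio of 1.09, although Rpl4 (-2.11 ± 0.99) and Rps15a (36 counts in c-fos and 0 in overlap, at least 9.98-fold lower) stood lower in overlap cells. Ribosomal protein genes have many processed pseudogenes that can share their reads. Nuclear genes of oxidative phosphorylation had 19 of 32 positive. None had an unadjusted p under 0.05 in edgeR, against 5.10% of all tested genes, so that count is near the background. Glycolysis held a gene on each side. Pkm, pyruvate kinase, had 87.6, 97.2 and 56.3 CPM in c-fos and 13.1, 0 and 8.48 CPM in overlap libraries, a ratio of 13.9 over 50 and 3 counts (95% interval 4.48 to 69.4). Pfkl, the liver-type phosphofructokinase, had 19.5, 86.0 and 75.1 CPM and 288, 166 and 216 CPM in the same order (1.83 ± 0.84), higher in every overlap library.

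**Figure D3:**
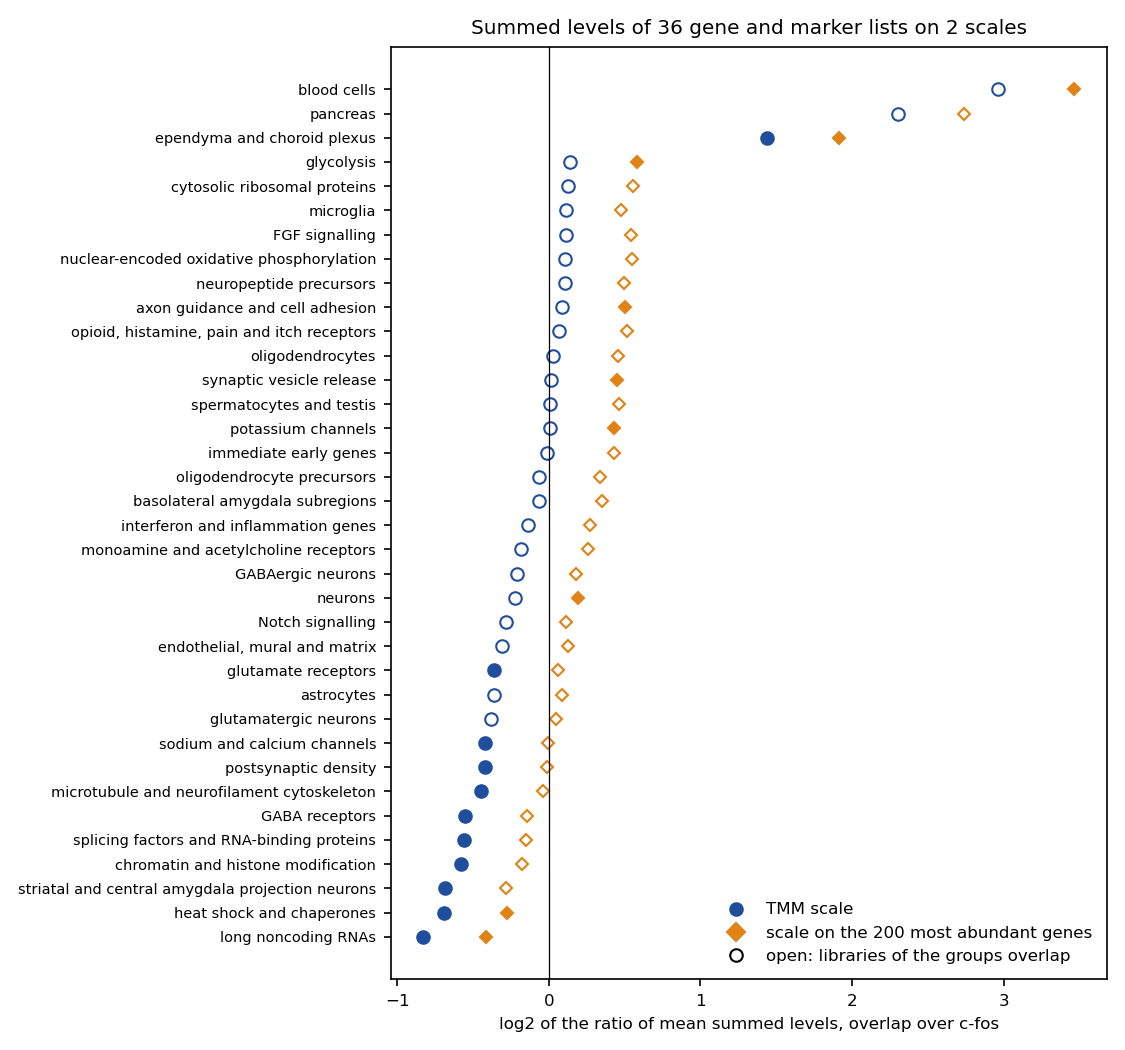
Log2 of the ratio of mean summed levels, overlap over c-fos, for 36 gene and marker lists; circles use TMM scaling, diamonds the scale of the 200 genes of highest abundance, and filled symbols mark lists whose libraries do not overlap between groups. On the TMM scale 10 lists are lower and 1 higher without overlap, and on the other scale 2 lists, chaperones and long noncoding RNAs, remain lower while 7 are higher.

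These list sums depended on the scale. With TMM scaling the sums of 10 of 36 lists were lower in every overlap library, and 2 of the 10 stayed so on the 200-gene scale, chaperones at a ratio of 0.826 and long noncoding RNAs at 0.752. Without Hsp90ab1 the chaperone ratio on that scale was 1.11, with overlapping groups. On that scale 7 lists were higher in every overlap library, among them neuron markers (1.14) and synaptic vesicle genes (1.37). The members and lists were compared without a test of the list as a whole.

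Signalling lists tied to the title and to itch or pain had few tested members. On the FGF list, 11 of 37 listed genes were tested, and Fgf2 was under the filter. Of the 11, 8 were positive (median 0.24), and the summed ratio of the list was 1.08. Fgf9, a neuronal FGF ligand, had 127, 153 and 101 CPM in c-fos, 26.2, 152 and 263 in overlap and 18.2, 0 and 0 in mCherry libraries, and Fgf18, another ligand, 87.6, 37.4 and 63.8 CPM in c-fos and 170.02, 92.2 and 225 CPM in overlap libraries (1.38 ± 0.89). The groups overlapped for Fgf9 and did not for Fgf18; both were chosen after their values were seen. Notch signalling had 8 of 34 listed genes tested, and 3 of the 8 were positive (median -0.71). Of the opioid, histamine, pain and itch receptors, 8 of 39 listed genes were tested and 5 were positive. No tested member of either list separated the groups, where 12.6% of all tested genes did. With so few members tested, this is near that background. The kappa opioid receptor gene Oprk1, also chosen after its values were seen, had 9.74, 44.9 and 56.3 CPM in c-fos and 340.04, 64.6 and 33.9 CPM in overlap libraries. Overlap 1 alone stood out there (1.86 ± 1.13, and 0.35 ± 1.26 without it). Monoamine and acetylcholine receptors had 2 of 8 positive and neuropeptide precursors 3 of 5. In edgeR 0 of their tested members had an unadjusted p under 0.05, against 5.10% of all tested genes. For so few members, that count is near the background.

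On the axon guidance and adhesion list 27 of 46 tested members were positive. Sema4a, a membrane semaphorin, had 0 counts in c-fos libraries and 0, 55.3 and 67.8 CPM in overlap libraries, at least 11.2-fold higher, with 73.0, 102 and 66.1 CPM in mCherry libraries. Overlap 1 was at 0 with the c-fos libraries. Ncam1, the neural cell adhesion molecule, had 253, 370.1 and 308 CPM in c-fos and 91.5, 157 and 127 CPM in overlap libraries and was lower in all of the latter (-1.29 ± 0.60). Interferon and inflammation genes were split evenly, with 6 of 12 positive and sums of 1762, 1604 and 1422 CPM in c-fos and 1517, 1388 and 1454 CPM in overlap libraries.

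Marker lists described which cells the captured material held. In such bulk samples fewer cells of a type and less RNA per cell cannot be told apart. Markers of striatal and central amygdala projection neurons summed to 1830.4, 1462 and 1557 CPM in c-fos and 667, 1116 and 1233 CPM in overlap libraries, at a ratio of 0.622 (exact permutation p = 0.1). The overlap libraries were all lower, 6 of 7 tested members were negative, and on the 200-gene scale the groups overlapped at 0.822. Isl1, a LIM homeobox factor of striatal neurons on that list, went against it, with 0, 0 and 3.75 CPM in c-fos and 0, 64.6 and 216 CPM in overlap libraries. Over 1 and 65 counts the ratio was 78.2 (95% interval 13.5 to 3135), and overlap 1 was at 0.

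Markers of basolateral amygdala subregions had sums of 1811, 2176 and 2458 CPM in c-fos and 2446, 2214 and 1500.2 CPM in overlap libraries. The groups overlapped, as they did for glutamatergic neurons (1061, 1656 and 1546 and 523, 1287 and 1462 CPM) and for GABAergic neurons (828, 553 and 615 and 589, 595 and 542 CPM). Astrocyte markers had 7 of 10 tested members negative at a ratio of 0.778, also with overlapping groups. Oligodendrocyte markers summed to a ratio of 1.02, with 3 of 5 tested members positive. Mal, a myelin proteolipid chosen after its values were seen, stood higher in every overlap library (0, 22.4 and 3.75 CPM in c-fos and 65.4, 92.2 and 55.1 CPM in overlap libraries, 2.80 ± 1.32). In the other direction Mbp, myelin basic protein, had 40 counts in c-fos and 1 in overlap libraries, a ratio of 33.3 (95% interval 5.64 to 1346). The sums of oligodendrocyte precursor and of endothelial, mural and matrix markers overlapped as well.

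Microglial markers summed to 682, 239 and 180.1 CPM in c-fos and 602, 244 and 348 CPM in overlap libraries, again overlapping, with P2ry12 at 0 everywhere. Of 3 tested members, 2 were negative, the complement gene C1qa (-1.73 ± 1.30) and the chemokine receptor gene Cx3cr1 (-0.60 ± 0.96), and the median was -0.60. Csf1r, the receptor that microglia need to survive, had 38.9, 7.48 and 33.8 CPM in c-fos and 445, 41.5 and 106 CPM in overlap libraries. It was higher in all overlap libraries and highest in overlap 1 (2.87 ± 1.20, and 1.47 ± 1.53 without it). Ependymal and choroid plexus markers were the list higher in every overlap library, at 29.2, 89.7 and 82.6 CPM in c-fos and 235, 111 and 199 CPM in overlap libraries, a ratio of 2.71 (exact permutation p = 0.1). Kcnj13, a potassium channel of the choroid plexus, was its tested member (2.09 ± 1.37), it overlaps Gigyf2, and the plexus marker Ttr was at 26.2, 23.1 and 0 CPM in overlap libraries. Blood markers were under the filter, and their sum rested on Cd3e in overlap 3.

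Transcripts of the pancreas, an organ outside the brain, set overlap 1 apart. Over 21 listed genes, of which 18 had counts, the sum was 2794, 2583 and 3347 CPM in c-fos and 38555, 2416 and 2064 CPM in overlap libraries, and 1541, 1207 and 23826 CPM in mCherry libraries 1 to 3. Overlap 1 and mCherry 3 were far above the other 7. Ins2, an insulin gene, stood at 720.5, 557 and 736 CPM in c-fos and 15302, 567 and 441 CPM in overlap libraries. The fold change was 3.01 ± 1.32 with all libraries and -0.42 ± 1.11 without overlap 1. Ins1, its close paralog, whose reads may be shared with it, went from 2.88 ± 1.33 to -0.73 ± 1.13. All 13 tested pancreas genes had positive fold changes with every library in the fit, and 1 of 13 did without overlap 1. Exocrine genes such as Ctrb1, a chymotrypsinogen, at 1883, 152 and 161 CPM in overlap libraries, and hormone genes such as Iapp, islet amyloid polypeptide, at 1936, 50.7 and 46.6 CPM, were both high in overlap 1. The part of these transcripts in other results was not tested.

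**Figure D4:**
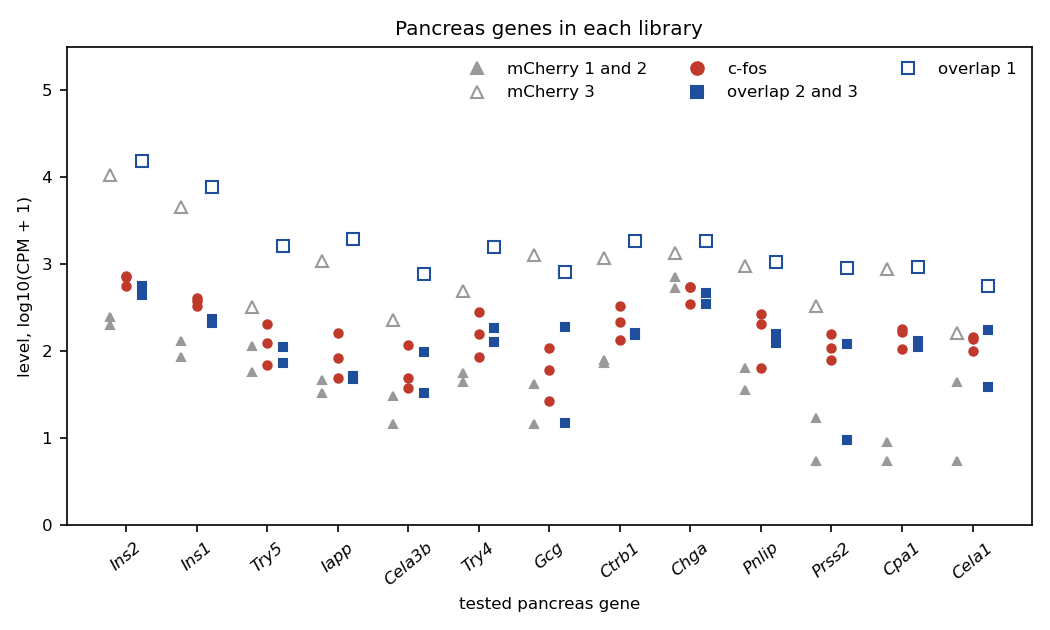
Level of 13 tested pancreas genes in each library, as log10 of CPM plus 1; triangles are mCherry, circles c-fos and squares overlap libraries, with mCherry 3 and overlap 1 drawn open. Overlap 1 is the highest of the 6 libraries of this comparison for every gene, and overlap 2 and 3 lie near or below the c-fos libraries for most.

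Overlap libraries were less alike than c-fos libraries; the part of depth in this was not tested. The Spearman correlation across tested genes, which are not independent replicates, was 0.241 to 0.377 among the overlap and 0.445 to 0.527 among the c-fos libraries. With each library thinned to 90091 counts, 10967 ± 1222 genes had a read in overlap and 12790 ± 445 in c-fos libraries (SD, n = 3, exact permutation p = 0.1). Counting only genes with at least 3 reads, these were 7136 ± 1421 and 8026 ± 122 (exact permutation p = 0.4), and overlap 2, at 8325, was the highest of the 6. Most of a gene's CPM summed over the 9 libraries came from overlap 1 for 189 tested genes, from overlap 2 for 5 and from overlap 3 for 77, against 1 or 2 genes for each c-fos library and 432 for mCherry 3.

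**Figure D5:**
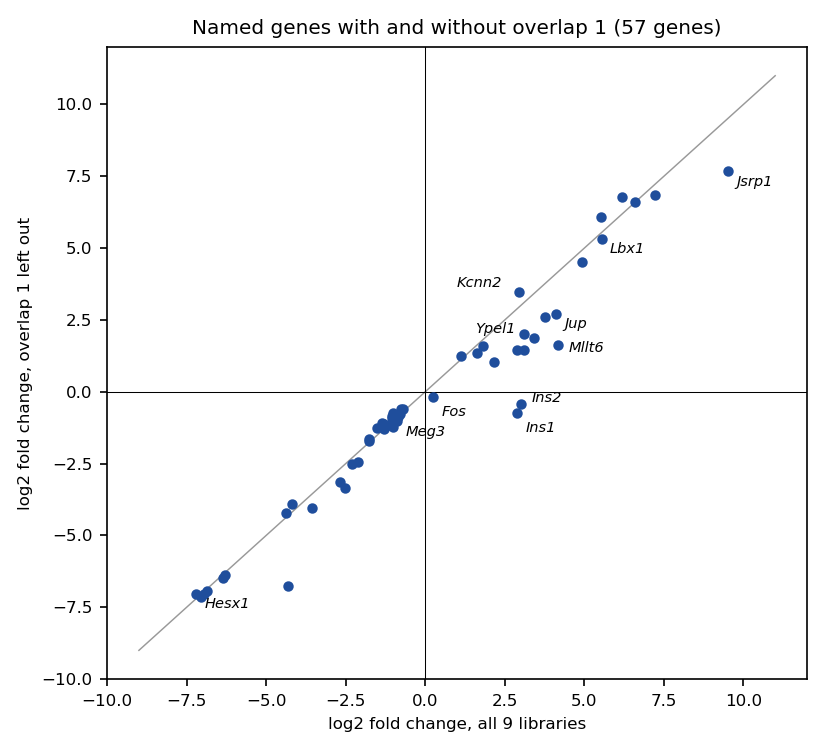
Log2 fold change of overlap against c-fos for 57 named and tested genes, with all 9 libraries (horizontal axis) and with overlap 1 left out (vertical axis); the grey line marks equal values. Most genes lower in overlap lie on or near the line, several higher ones such as Jup, Ypel1 and Mllt6 lie below it, and Ins1, Ins2 and Fos cross 0.

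Without overlap 1, the fold changes of the leading lower genes were close to those with all libraries, and those of the higher genes split. Meg3 stood at -1.02 ± 0.17, Malat1 at -0.90 ± 0.19, Hsp90ab1 at -0.90 ± 0.23, Chd3 at -1.08 ± 0.28 and Hesx1 at -7.03 ± 1.27. On the higher side Lbx1 was at 5.32 ± 1.59 in place of 5.54 ± 1.50, Ptms at 1.36 ± 0.43 in place of 1.63 ± 0.42, and the fold change of Kcnn2 was 3.49 ± 0.89 in place of 2.95 ± 1.17. Of the 57 named and tested genes, 3 changed sign in that fit, Ins1, Ins2 and Fos. No gene passed in edgeR there.

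Levels in mCherry cells place the single-label groups beside these values; the comparisons share the overlap or the c-fos libraries. Meg3 had 19949.9, 13934 and 13333 CPM in mCherry libraries, with a log2 fold change of -1.20 ± 0.16 for overlap against mCherry and -0.30 ± 0.16 for c-fos against mCherry. For Hsp90ab1 these were -1.24 ± 0.22 and -0.28 ± 0.21. Overlap libraries were thus lower than either single-label group for both genes. Chkb was higher in overlap than in both, at 13.7, 0 and 0 CPM in mCherry libraries, with 5.20 ± 1.52 and 0.26 ± 1.48. Of the 12 genes named on the higher side, all but Ptms had positive fold changes for overlap against mCherry. They included Jsrp1 at 3.42 ± 1.26, Lbx1 at 1.09 ± 1.12 and Ndufaf3 at 1.22 ± 1.39. For c-fos against mCherry, all of the 12 but Chkb and Mllt6 had negative fold changes. Jsrp1 stood at -6.11 ± 1.94, Lbx1 at -4.45 ± 1.47, Pomgnt2 at -5.49 ± 2.04 and Ndufaf3 at -5.39 ± 1.90. For these genes, too, c-fos was the group with the lowest levels. Ptms had -0.44 ± 0.41 for overlap and -2.06 ± 0.42 for c-fos against mCherry.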

How the data were processed

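The deposited table holds raw counts per gene for 9 libraries and 54838 Ensembl mouse gene IDs, with 0 columns left unused. Trim Galore, STAR, UMI-tools, featureCounts and the mm9 build are listed in the submitters' processing notes. No source used here gives their versions, order, UMI collapsing or strand setting. Gene names, types and overlaps came from a GRCm38 annotation, so no coordinates are given, and 115 IDs with 0.222% of the counts had no symbol.

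Total counts ran from 90091 to 304536 in the 6 libraries compared, and intervals and floors cover counting error only. All 9 libraries entered 1 edgeR quasi-likelihood fit (edgeR 4.0.16, R 4.3.3) with TMM scaling and filterByExpr at a minimum count of 10, p-values being adjusted by Benjamini and Hochberg over 7959 genes at a threshold of 0.05. The common dispersion gave a biological coefficient of variation of 0.857. Fold changes carry a standard error from the F statistic. DESeq2 1.42.0 and limma 3.58.1 (voom) were alternatives, with other scalings, filters, libraries left out and a replicate block. Scripts were tested on simulated data. List levels are sums of scaled CPM, compared by two-sided exact permutation tests.

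Genes were named as follows: Fos, Fgf2, Notch2 and Hesx1; up to 12 per direction whose groups did not overlap, with at least 3 counts in each library of the higher group, by smallest p; and up to 3 members of each list with an unadjusted p under 0.05. Predicted genes, pseudogenes and antisense genes were counted, not named. Miat, Arc, Junb, Dusp1, Egr1, Fgf9, Fgf18, Oprk1, Kcnj13, Ttr, Cd3e, Ctrb1, Iapp, Mal, C1qa, Cx3cr1 and P2ry12 were chosen after their values were seen. The members and lists were chosen with earlier results of these data known.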

Additional observations from a re-analysis of the deposited data

How the results depend on the processing

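The number of genes called between overlap and c-fos cells, 0 with all libraries, was 41 with no filter on low counts (30 higher and 11 lower, of 26012 tested), 6 with DESeq2 (5 higher and 1 lower), 3 with limma-voom (0 higher and 3 lower) and 1 with the 6 libraries alone (0 higher, 1 lower). It was 1 (lower) with overlap 1 and mCherry 3 left out together, an alternative added after seeing the data, and 0 with upper quartile, DESeq2 size factor or 200-gene scaling or a minimum count of 20. Leaving out 1 library gave 0 to 9 calls (0 to 7 higher, 0 to 2 lower), 9 of them without mCherry 3. The labels do not say whether replicate numbers pair the libraries. The deviations of same-numbered libraries correlated at -0.0284, 0.0135 and -0.00058. Given the spread between libraries, this check cannot tell paired from unpaired ones. The replicate block gave 3 calls (1 higher, 2 lower). The split of non-overlapping genes was 427 higher and 523 lower with DESeq2 size factors, 247 and 836 with upper quartile scaling and 1178 and 1305 without overlap 1. Of 1055 gene values under alternatives, 6 changed sign: without overlap 1, Ins2 stood at -0.42, Ins1 at -0.73 and Fos at -0.19, and with mCherry 3 also out at -0.41, -0.73 and -0.18. Over single libraries left out they reached 3.55, 3.42 and 0.50, the highest values. Of 112 list ratios 7 changed side: neurons 1.144, immediate early genes 1.348 and glutamate receptors 1.044 on the 200-gene scale, pancreas 0.770 without overlap 1, and immediate early genes 1.009, 1.112 and 1.079 without c-fos 2, c-fos 3 and overlap 2. Leaving out single libraries, the pancreas ratio ran up to 7.04 and the immediate early ratio down to 0.883. Genes detected at equal depth differed by -2342 to -1150 over single libraries left out. The cause of these shifts was not tested. Each group has 3 libraries, with a spread under which even large differences could fail the test. In simulated counts with the fitted dispersion, edgeR called 3% of genes changed 4-fold and 34% of genes changed 16-fold. So 0 calls do not show that large differences are absent. In the shallow overlap 1 a floor of 3 counts stands at 33.3 CPM.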
